A study of Mus musculus with 24 samples.

Results

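The mRNA of 10 nuclear receptors of the liver was followed in isolated hepatocytes: Nr1i2, Nr1i3, Rxra, Pparg, Ppard, Nr1h3, Hnf4a, Nr5a2, Esrra and Rora. They were chosen by gene name from the 55421 genes of the count table, and all 10 had enough reads to be tested among 13583 genes. The study crossed age with diet in 24 male mice, 6 in each of 4 groups, and sequenced polyA RNA of hepatocytes freed by liver perfusion. Young mice on normal diet (YND) and on high fat diet (YHFD) were labelled C57BL/6N and 6 months old. Old mice on normal diet (OND) and on high fat diet (OHFD) were labelled C57BL/6J and 24 months old, and the effects of age and of substrain cannot be told apart. The HFD took 60% of its energy from fat, the ND was a standard chow, and each was fed for 9 weeks. No mouse carried an engineered allele or received a drug. The libraries came in 2 batches, with 3 mice of each group in each batch except OND, which had 2 in batch 1 and 4 in batch 2.

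Nuclear receptors are transcription factors that bind DNA near their target genes, and many of them change the activity of those genes when a small lipophilic molecule sits in their ligand pocket. Several work as pairs with the retinoid X receptor RXR, among them the drug sensors PXR and CAR, the fatty acid sensors of the PPAR group and the oxysterol sensor LXR, while HNF4 alpha binds as a pair with itself and LRH-1 and ROR alpha can bind alone. In hepatocytes they set much of the expression of cytochrome P450, bile acid, lipoprotein, fatty acid and clock genes.

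Promoter sequences are shown for the 4 receptors with the lowest adjusted p in old mice on HFD against young mice on ND (Hnf4a, Rora, Ppard and Nr1i2) and for 2 receptors whose windows hold the receptors' own core motif and whose mRNA did not pass that test (Rxra at its downstream start, and Nr5a2). Pparg shares these features, but its matches lie in annotated exon bases, which are not shown. Hnf4a is shown at its upstream start only. The window of its downstream start (chr2:163546905-163547154) begins with an annotated exon base and is not shown. Which start these hepatocytes used was not tested. The core motif AGGTCA, the sequence that most nuclear receptors contact, was searched on both strands in the 250 bases before each RefSeq transcription start (GRCm38.p6), as was the E-box CACGTG that clock factors bind, and no match of the one overlapped a match of the other. Each stretch is given 5′ to 3′ on the strand of the gene and stops before the first annotated exon base of that gene. Capitals mark AGGTCA or its reverse complement.
Hnf4a, chr2:163506607-163506807, plus strand: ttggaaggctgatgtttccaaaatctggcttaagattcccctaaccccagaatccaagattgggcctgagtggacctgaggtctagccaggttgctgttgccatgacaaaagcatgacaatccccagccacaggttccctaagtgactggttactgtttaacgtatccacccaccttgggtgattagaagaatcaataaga
Rora, chr9:68653536-68653785, plus strand: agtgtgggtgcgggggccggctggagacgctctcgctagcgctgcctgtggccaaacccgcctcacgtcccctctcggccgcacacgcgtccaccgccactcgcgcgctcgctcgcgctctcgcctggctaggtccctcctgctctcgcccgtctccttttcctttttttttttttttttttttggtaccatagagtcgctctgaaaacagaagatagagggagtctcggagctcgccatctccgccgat
Ppard, chr17:28232504-28232699, plus strand: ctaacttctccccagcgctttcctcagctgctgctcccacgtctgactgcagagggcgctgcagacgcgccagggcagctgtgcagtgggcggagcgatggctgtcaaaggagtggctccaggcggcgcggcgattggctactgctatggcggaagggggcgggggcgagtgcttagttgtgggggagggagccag
Nr1i2, chr16:38294825-38295074, minus strand: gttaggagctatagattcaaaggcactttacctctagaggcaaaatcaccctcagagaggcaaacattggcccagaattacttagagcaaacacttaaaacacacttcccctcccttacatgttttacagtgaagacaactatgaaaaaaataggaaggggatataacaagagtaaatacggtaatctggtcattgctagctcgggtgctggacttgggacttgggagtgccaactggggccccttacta
Rxra, chr2:27709042-27709291, plus strand: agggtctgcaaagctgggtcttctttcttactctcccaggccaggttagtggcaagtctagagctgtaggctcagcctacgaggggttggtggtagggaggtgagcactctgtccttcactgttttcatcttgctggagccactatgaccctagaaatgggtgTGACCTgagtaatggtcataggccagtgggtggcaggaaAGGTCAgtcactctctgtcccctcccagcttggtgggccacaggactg
Nr5a2, chr1:136960449-136960698, minus strand: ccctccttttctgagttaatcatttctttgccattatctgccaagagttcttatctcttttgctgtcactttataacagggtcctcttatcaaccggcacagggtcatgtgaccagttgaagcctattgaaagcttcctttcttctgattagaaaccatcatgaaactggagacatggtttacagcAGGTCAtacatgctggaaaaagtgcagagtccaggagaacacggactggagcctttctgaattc
All 10 receptors had an entry, with 16 windows in all. AGGTCA was found in 4 of the 16 windows, against 14.02% of 32851 windows of all genes. Those windows belonged to Rxra (2 matches), Nr5a2 and Pparg (2 windows). CACGTG was found in 1 window, that of Nr1i3, against 6.02% of all windows. No window of Hnf4a, Rora, Ppard, Nr1i2, Esrra or Nr1h3 held either run of letters, which says only that these letters are not in these 250 bases. Other windows of Rxra, Nr5a2 and Pparg held neither as well. The windows differed in base composition: GC content was 44.0% at Nr1i2, 61.2% at Rora and 69.6% at Ppard, beside a median of 52.4% over all windows.

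Total counts ran from 9200332 to 22185069 per mouse, and the 6 OHFD libraries, at 9200332 to 13517632, were all below every other library. Summed CPM (read counts over the scaled library size, set to a common depth) of 10 hepatocyte markers was 63802 to 167552 in every mouse. Markers of other liver cells were present at low levels and moved with the groups and with the batches. In YND the Kupffer cell markers summed to 1.81 to 4.91 CPM in batch 1 and 49.4 to 88.1 in batch 2. The batches overlapped in the other groups, and the highest mouse of each group in these markers was in batch 2. The 10 Kupffer cell markers summed to 1.81 to 88.1 CPM in YND (median 27.2), 16.2 to 215.8 in YHFD (median 121.8), 68.1 to 1365 in OND (median 127.7) and 98.8 to 721 in OHFD (median 153.7), and none of the 10 was at 0 throughout a group. In OND against YND all 10 Kupffer markers, 5 of 8 sinusoidal endothelial markers and 7 of 8 stellate cell markers passed the test as higher, and in OHFD against YND 9 of 10, 8 of 8 and 6 of 8 did. Their part in the receptor results was not tested, beyond leaving out the mouse of each group highest in Kupffer markers. In bulk RNA, fewer cells of a type and less RNA per cell cannot be told apart.

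Compared per length, the receptors spanned a wide range in YND. Level here means CPM divided by the kilobases of annotated exon. Hnf4a, which maintains hepatocyte identity, had the highest level at 129.5 ± 10.003 (SD, n = 6), followed by Rxra, the shared partner, at 56.8 ± 7.02. Nr1h3 (LXR alpha) had 37.2 ± 1.81 and Nr1i2 (PXR) 26.3 ± 3.30, and the ranges of these 4 did not overlap from one to the next. Nr1i3 (CAR) at 14.6 ± 3.97 and Nr5a2 (LRH-1) at 12.3 ± 0.877 overlapped each other, as did Pparg at 7.54 ± 1.75 and Rora at 6.47 ± 0.837. Esrra (ERR alpha), at 4.73 ± 0.237, and Ppard, at 2.01 ± 1.45, stood last and did not overlap. In YHFD and OHFD the ranges of Hnf4a and Rxra overlapped, and Ppard stayed below every other receptor of the 10 in all 4 groups. Over all 24 mice Hnf4a and Rxra ranked 1 and 2 among 49 nuclear receptor genes by mean level, Nr1h3 ranked 4, and Ppard ranked 30. Rxra had a mean level of 59.6, beside 6.74 for Rxrb and 2.35 for Rxrg, the other two RXR genes.

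**Figure D1:**
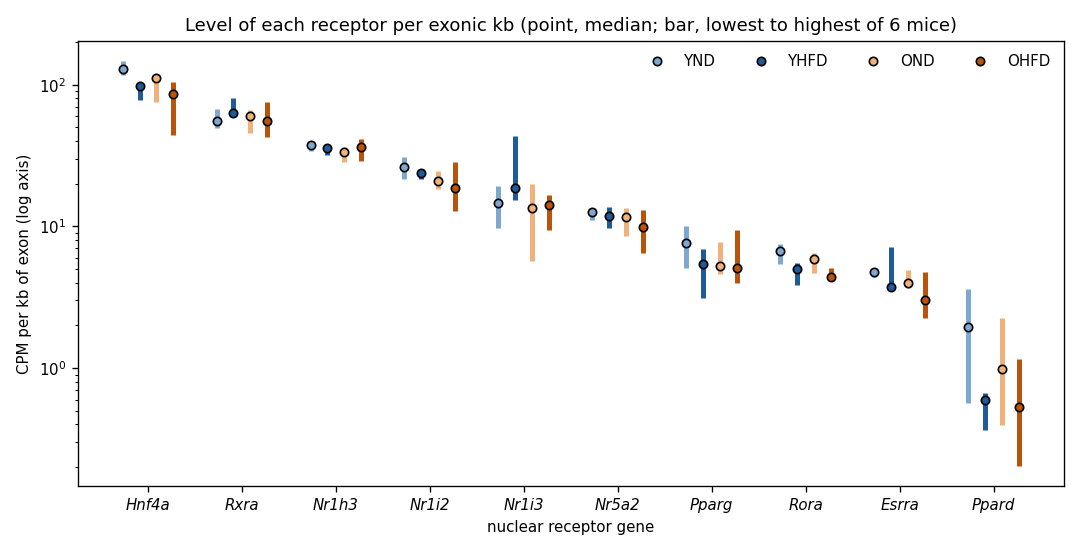
Level of each receptor as CPM per kilobase of annotated exon (vertical log axis) by gene (horizontal axis), with the median as a point and the lowest to highest of 6 mice as a bar in each of 4 groups. Hnf4a and Rxra stand highest and Ppard lowest, and the Hnf4a bars of YHFD and OHFD reach down to those of Rxra.

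None of the 10 receptors passed the main test as higher in any comparison, although Nr1i3 did in YHFD against YND under 2 alternatives given with its values. In YHFD against YND 2 of 10 were lower, Ppard and Rora, where 1.59% of all 13583 genes were called lower and 1.91% higher. OHFD and YND differed in age, labelled substrain and diet. In OHFD against YND 5 of 10 were lower (Hnf4a, Rora, Ppard, Nr1i2 and Esrra), beside 12.9% of all genes lower and 17.3% higher. No receptor was called in OHFD against OND (1.37% of all genes higher, 1.64% lower), in OND against YND (7.26% higher, 1.24% lower) or in OHFD against YHFD (1.82% higher, 0.42% lower). A gene counted as called at an adjusted p under 0.05, from the quasi-likelihood test of edgeR adjusted over all tested genes by the Benjamini-Hochberg method. Without the mouse of each group highest in Kupffer markers (YND replicate 4, YHFD replicate 5, OND replicate 4 and OHFD replicate 6) the same 5 receptors were called lower in OHFD against YND, while in YHFD against YND neither was, with Ppard at -1.66 (adjusted p = 0.123 in edgeR) and Rora at -0.46 (adjusted p = 0.0700). The median log2 fold change of the 10 was -0.12, -0.43, -0.18, -0.23 and -0.24 in these 5 comparisons in the order given, where the median of all tested genes lay between -0.01 and 0.04. The comparisons share groups of mice and are given side by side, not as independent results.

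**Figure D2:**
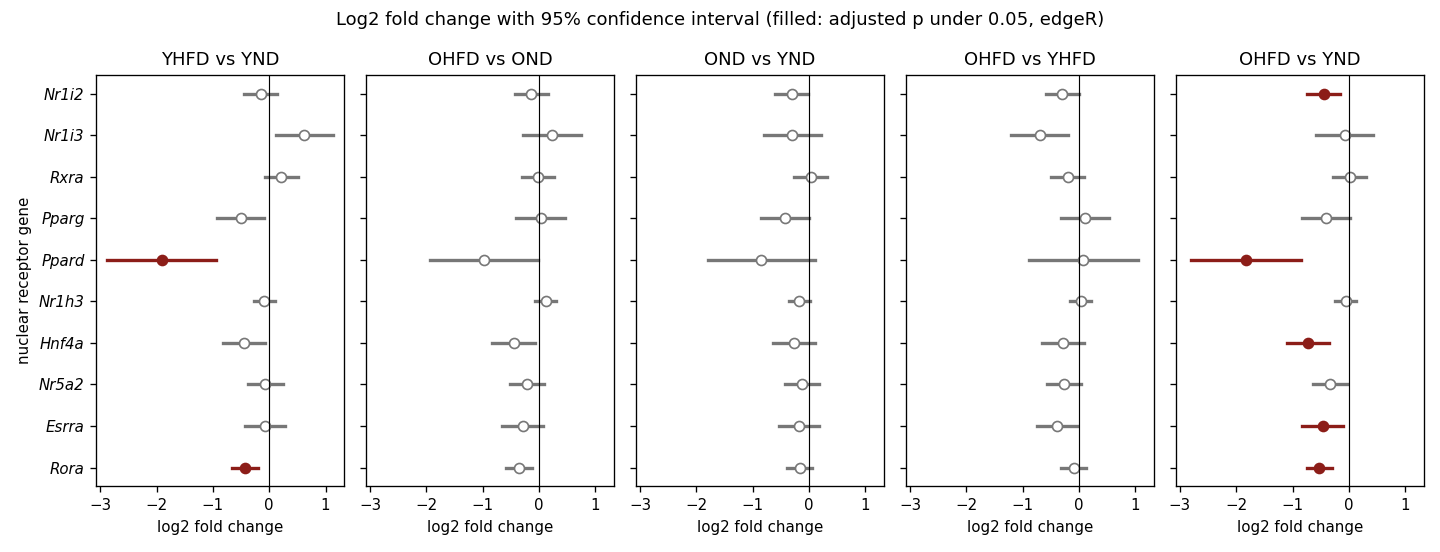
Log2 fold change (horizontal axis) of each receptor (vertical axis) in 5 comparisons, with its 95% confidence interval as a line; filled points have an adjusted p under 0.05. The filled points are Ppard and Rora in YHFD against YND and Nr1i2, Ppard, Hnf4a, Esrra and Rora in OHFD against YND, all to the left of 0.

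Hnf4a, chr2:163506808-163572910 (GRCm38, plus strand), encodes HNF4 alpha, which drives apolipoprotein, clotting factor and bile acid genes in hepatocytes. Its lowest, median and highest CPM were 563, 620 and 712 in YND, and 379, 474 and 498 in YHFD. They were 365, 537 and 573 in OND, and 212, 415 and 506 in OHFD. Every YHFD mouse and every OHFD mouse was below every YND mouse. The log2 fold change was -0.73 (SE 0.18) in OHFD against YND, with an adjusted p of 0.00534 by edgeR's quasi-likelihood test. In YHFD against YND it was -0.44 (SE 0.18), which did not pass (adjusted p = 0.154 by the same test), although the groups did not overlap. With the mice of those 2 groups alone in the edgeR fit it was -0.42, with an adjusted p of 0.00433. The OHFD mice were uneven: replicates 2 and 4 had 212 and 216 CPM, replicate 6 had 367, and the other 3 had 464 to 506. Within batches the OHFD against YND change was -0.71 in batch 1 and -0.76 in batch 2, and neither batch alone passed (adjusted p of 0.119 and 0.0866 in edgeR). Hnf4a was called in that comparison in all 24 fits that left out a mouse.

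Nr5a2, chr1:136842571-136960448 (minus strand), encodes LRH-1, which acts on bile acid and cholesterol genes. Its CPM ran from 65.4 to 77.2 in YND (median 74.2), 57.3 to 81.2 in YHFD (median 69.5), 50.5 to 79.0 in OND (median 69.2) and 38.2 to 77.5 in OHFD (median 58.7). All groups overlapped, and the OHFD replicates low in Hnf4a, 2, 4 and 6, were also the lowest in Nr5a2. The log2 fold change in OHFD against YND was -0.34 (95% interval -0.64 to -0.03), with an adjusted p of 0.0862 in edgeR's quasi-likelihood test, and without OHFD replicate 5 it was -0.45 (adjusted p = 0.0142). Of the 45 pairs among the 10 receptors, Hnf4a and Nr5a2 had the highest correlation over the 24 mice (Pearson r 0.82 on log2 CPM with batch means removed), and Nr1i2 with Hnf4a had 0.71. These are descriptions over mice that share groups, libraries and depth.

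**Figure D3:**
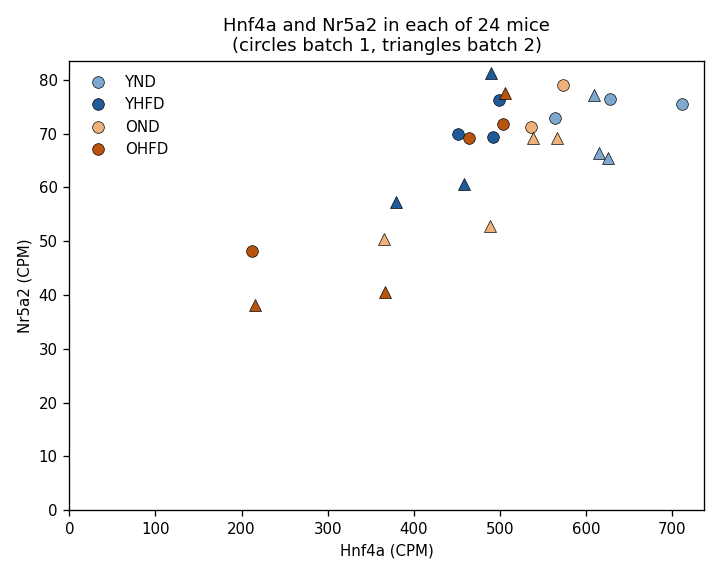
CPM of Hnf4a (horizontal axis) and Nr5a2 (vertical axis) in each of 24 mice, coloured by group, with circles for batch 1 and triangles for batch 2. The OHFD replicates 2 and 4 lie at 212 and 216 CPM of Hnf4a, left of all other mice, and with OHFD replicate 6 are the lowest 3 in Nr5a2.

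Among 26 tested genes linked to HNF4 alpha, 3 were higher and 6 lower in OHFD against YND, with a list median of -0.16. As 17.3% of all genes were higher and 12.9% lower there, the number called was near the share of all genes, and nothing is read from it about the list. In OHFD against OND 2 of the 26 were higher (Apoc3 and Apoh) and none lower, beside 1.37% and 1.64% of all genes. The list median there was 0.04. The lower ones in OHFD against YND included Apob (log2 fold change -0.74), Mttp (-0.37), Cyp27a1 (-0.50), Pklr (-1.29) and Tat (-0.78). Apob and Mttp build and load very low density lipoprotein, and Cyp27a1 makes bile acids. The higher ones were the secreted plasma proteins Apoa1 (0.59), Apoc3 (0.80) and Apoh (0.43). In YHFD against YND Apoa4 was higher (1.46) while Apom (-0.63) and Cyp27a1 (-0.44) were lower. Of 11 tested genes linked to LRH-1, Abcb11, the bile salt export pump, was lower in YHFD (-0.60), OND (-0.50) and OHFD (-0.88), each against YND. None of the 11 was called higher in any comparison.

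Rora, chr9:68653786-69388246 (plus strand), encodes ROR alpha, which activates clock genes such as Arntl and lipid genes. Lowest, median and highest CPM were 70.8, 87.1 and 98.4 in YND, 50.1, 64.9 and 72.0 in YHFD, 61.1, 76.6 and 84.3 in OND, and 54.5, 57.2 and 66.2 in OHFD. Every OHFD mouse was below every YND mouse, and YHFD overlapped YND only between 70.8 and 72.0 CPM. Rora fell in OHFD against YND (log2 fold change -0.52, SE 0.11, adjusted p = 0.00166 by edgeR's quasi-likelihood test) and in YHFD against YND (-0.43, SE 0.11, adjusted p = 0.0332). In OHFD against OND the log2 fold change was -0.36 (SE 0.11, adjusted p = 0.0686), which DESeq2 with batch called (-0.34, adjusted p = 0.0348). The HFD effect in old mice minus that in young mice was 0.07 (95% interval -0.25 to 0.39). The OHFD against YND call stood in all 24 fits with a mouse left out, and the YHFD against YND call in 15 of 24. The latter was lost without YND replicate 1, 2, 3 or 5, YHFD replicate 1, 3, 5 or 6, or OND replicate 2, with changes of -0.38 to -0.43 and adjusted p of 0.0537 to 0.0861. It was also lost without the count filter (adjusted p = 0.0951 in edgeR) and in each batch alone (-0.51 and -0.31, adjusted p of 0.173 and 0.670). The OHFD against YND change was -0.67 in batch 1, which passed, and -0.40 in batch 2, which did not (adjusted p = 0.144).

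Of 14 tested genes linked to ROR alpha, 5 were lower in YHFD against YND, beside 1.59% of all genes, and the list median was -0.66. They were the clock factors Arntl (-1.70), Clock (-0.66) and Cry1 (-1.30), the clock output repressor Nfil3 (-1.32) and the fatty acid elongase Elovl3 (-1.89). In OHFD against YND these 5 and the clock factor Npas2 (-2.84) were lower, and none was higher, beside 12.9% and 17.3% of all genes. No gene of the list was called in OHFD against OND. In OND against YND Cry1 (-1.32), Elovl3 (-1.58), the bile acid enzyme Cyp8b1 (-0.82) and G6pc (-1.01), which encodes the last enzyme of glucose release, were lower. There 1.24% of all genes were lower. Clock genes change through the day, and the time of day at which the livers were taken is not given in the sources used here.

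Ppard, chr17:28232700-28301474 (plus strand), encodes PPAR delta, a fatty acid sensor found in many tissues. YND replicates 1 to 6 had 27.2, 22.8, 6.76, 24.98, 4.70 and 4.28 CPM. YHFD mice had 2.77 to 5.04 CPM, with a median of 4.45. OND replicates had 6.28, 8.52, 13.1, 16.99, 5.22 and 2.999 CPM, and OHFD replicates 3.59, 3.61, 1.53, 8.69, 4.40 and 4.68 CPM. YND thus held 3 mice above 22 CPM and 3 below 7, and only the former stood clear of YHFD and OHFD. The log2 fold change was -1.91 (SE 0.47, adjusted p = 0.0264 in edgeR's quasi-likelihood test) in YHFD against YND and -1.83 (SE 0.48, adjusted p = 0.00688) in OHFD against YND. In OHFD against OND it was -0.98 (SE 0.47, adjusted p = 0.217), which passed without the count filter (-1.004, adjusted p = 0.000516). The YHFD call was lost when YND replicate 1, 2 or 4 was left out (-1.62, -1.74 and -1.70, with adjusted p of 0.0755, 0.0715 and 0.0826) and when YHFD replicate 1, 3 or 5 was (adjusted p of 0.0559, 0.0631 and 0.0670). For YHFD against YND batch 1 gave -2.39, which passed, and batch 2 gave -1.26, which did not (adjusted p = 0.669 in edgeR). For OHFD against YND batch 1 gave -2.73, which passed, and batch 2 gave -0.92, which did not (adjusted p = 0.374).

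Arntl, one of the genes linked to ROR alpha, is set beside Ppard by mouse. In YND replicates 1 to 6 Arntl had 36.4, 30.6, 28.4, 31.8, 12.8 and 8.19 CPM. The 3 YND mice high in Ppard were the 3 highest in Arntl, and replicates 5 and 6 were the lowest in both. In OND, replicate 6 was the lowest in both genes, but replicate 4, the highest in Ppard, had 17.6 CPM of Arntl, below replicates 1, 2 and 3. The HFD groups did not show the same order either: YHFD replicate 2 was the lowest in Ppard but had 12.996 CPM of Arntl, where the highest YHFD mouse had 14.4, and OHFD replicate 2 was the highest of its group in Arntl (11.1 CPM) with 3.61 CPM of Ppard. The genes most like Ppard over 24 mice were Chka (Pearson r 0.81 with batch means removed), which encodes choline kinase, and Paxx (0.80).

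Pparg, chr6:115360951-115490399 (plus strand), encodes PPAR gamma, best known as the driver of fat storage in adipocytes. Its CPM ran from 15.1 to 29.8 in YND (median 22.4), 9.25 to 20.5 in YHFD (median 16.1), 13.6 to 22.9 in OND (median 15.6) and 11.8 to 27.7 in OHFD (median 15.1). The groups overlapped throughout, and the medians of the 3 other groups were below that of YND. The log2 fold change was -0.51 (95% interval -0.93 to -0.09) in YHFD against YND and -0.41 (-0.83 to 0.02) in OHFD against YND, with adjusted p of 0.145 and 0.134 in edgeR's quasi-likelihood test. OHFD replicate 2, at 27.7 CPM, weighed on the latter: without it the value was -0.60, with an adjusted p of 0.0218.

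Several genes linked to PPAR gamma and lipid storage rose with HFD, where Pparg itself did not pass the test. Of 11 tested, 5 were higher in YHFD against YND and none lower, with a list median of 1.20. In OHFD against OND 5 were higher, with a median of 1.02. Of all genes 1.91% and 1.37% were higher in these 2 comparisons. Vldlr, a lipoprotein receptor, rose in both (2.47 and 1.82), as did Mogat1 (1.78 and 2.42), which makes diacylglycerol, and Plin4 (1.46 and 1.21), a lipid droplet coat protein. The rise of Vldlr in old mice was uneven between batches, with means of 3.17 CPM in OND and 16.8 in OHFD in batch 1, and 1.24 and 2.33 in batch 2, where the OHFD mice lay within the range of all OND mice. Cd36, a fatty acid transporter, rose in YHFD (1.20), and G0s2, an inhibitor of lipolysis, in OHFD against OND (1.41). Cidea, a lipid droplet protein, was higher in old than in young mice on both diets. Its means were 1.54 ± 1.09 CPM in YND and 10.1 ± 6.07 in OND, and 3.94 ± 1.63 in YHFD and 20.5 ± 9.67 in OHFD. In OHFD against YND 8 of 11 were higher and none lower, beside 17.3% and 12.9% of all genes. In OND against YND 3 were higher and 1 lower, beside 7.26% and 1.24% of all genes. Of 5 adipocyte markers, Cfd was the only one tested and rose with HFD at both ages (3.95 and 4.73), Plin1 and Lep were at 0 in all mice, and Adipoq did not pass 0.17 CPM in any mouse. Fabp4 (1.99 in YHFD against YND) and Lpl (2.64 in OND against YND) moved beside the Kupffer marker sums given above, and the part of other cells in them was not tested.

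A list of 20 tested genes of fatty acid use, which PPAR alpha and PPAR delta share, had 5 higher in YHFD against YND and none lower. In OHFD against OND 4 were higher and none lower. Of all genes 1.91% and 1.37% were higher in these 2 comparisons. Cyp4a14 (2.16 and 2.25) and Cyp4a10 (1.82 and 1.92) were higher in both, as was the pantetheinase Vnn1 (1.33 in OHFD against OND). In OND against YND 1 of the 20 was higher and 2 lower, beside 7.26% and 1.24% of all genes. The Cyp4a genes oxidise fatty acids at the omega end, are close copies of each other and may share reads. Ppara itself had means of 76.4, 91.3, 60.1 and 60.8 CPM in YND, YHFD, OND and OHFD and was not called in any comparison.

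Nr1i2, chr16:38248323-38294824 (minus strand), encodes PXR, which senses drugs and bile acids. Lowest, median and highest CPM were 55.0, 66.9 and 79.1 in YND, 55.4, 60.4 and 65.2 in YHFD, 46.8, 53.5 and 63.1 in OND, and 32.9, 47.8 and 73.3 in OHFD. The highest OHFD mouse lay within the YND range, so the groups overlapped. Nr1i2 fell in OHFD against YND (log2 fold change -0.45, SE 0.14, adjusted p = 0.0213 in edgeR's quasi-likelihood test) and the call stood in 22 of 24 fits with a mouse left out. It was lost without YND replicate 3 (-0.39, adjusted p = 0.0547) or OHFD replicate 4 (-0.32, adjusted p = 0.0651). Batch 1 gave -0.66, which passed, and batch 2 gave -0.26, which did not (adjusted p = 0.445 in edgeR). With the mice of those 2 groups alone in the fit the adjusted p was 0.125.

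Nr1i3, chr1:171213970-171220701 (plus strand), encodes CAR, the other drug sensor. Of its annotated exon bases 74.9% also lie in exons of Tomm40l on the opposite strand, and the strand setting of the counting is not given in the sources used here, so its values are uncertain. CPM ran from 42.8 to 85.5 in YND (median 64.6), 68.1 to 193.1 in YHFD (median 82.1), 25.1 to 88.4 in OND (median 59.4) and 41.3 to 73.5 in OHFD (median 62.5). Nr1i3 was the receptor with the largest positive change, 0.63 (95% interval 0.12 to 1.13) in YHFD against YND, which did not pass (adjusted p = 0.137 in edgeR's quasi-likelihood test). It passed as higher without the count filter (0.62, adjusted p = 0.00206) and with the mice of those 2 groups alone in the fit (0.65, adjusted p = 0.0134). In OHFD against YHFD it was -0.70 (-1.20 to -0.19, adjusted p = 0.120 in edgeR), which passed without the count filter (-0.74, adjusted p = 0.000215). Tomm40l had 2.00 to 10.9 CPM over all mice and a log2 fold change of 0.17 in YHFD against YND and -0.81 in OHFD against YHFD (adjusted p of 0.717 and 0.0508).

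Most of the called targets of PXR and CAR were lower with HFD. Of 25 tested, 6 were lower and 2 higher in YHFD against YND (1.59% and 1.91% of all genes). In OHFD against OND 8 were lower and 1 higher (1.64% and 1.37% of all genes). In OHFD against YND 11 were lower and 3 higher (12.9% and 17.3% of all genes). The list medians stayed between -0.15 and -0.07 in these comparisons. Cyp3a11, the main drug oxidising P450 of mouse liver, had 3962 to 5453 CPM in YND and 478 to 941 in YHFD, and 1522 to 3953 in OND and 388 to 974 in OHFD. The groups did not overlap at either age, and the log2 fold changes were -2.62 and -2.36. Cyp2b10, a marker of CAR activity, fell by 3.05 and 2.88 on the log2 scale. Its levels were low, at 5.33 to 12.6 CPM in YND and 0.415 to 2.47 in YHFD. In old mice the groups overlapped, with 0.654 to 15.4 CPM of Cyp2b10 in OND and 0.390 to 2.01 in OHFD. Cyp2c55 fell by 2.61 and 2.90, Cyp2c29 by 1.20 and 1.29, and the carboxylesterase Ces2a by 1.42 and 0.88. Cyp2b9 went the other way, with group means of 0.303 CPM in YND, 71.5 in YHFD, 8.37 in OND and 68.1 in OHFD, and Cyp2b13 had no read in YND. Its median was 0.828 CPM in YHFD, where replicate 2 had 15.9, 0.654 in OND (highest 1.57) and 5.65 in OHFD (3.22 to 32.5). The Cyp2b and Cyp2c genes are families of close copies and their reads may be split between them. In OND against YND no target was lower and 3 were higher, beside 1.24% and 7.26% of all genes. In OHFD against YHFD none was called, beside 0.42% of all genes lower and 1.82% higher.

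Rxra, chr2:27676440-27762957 (plus strand), showed no difference that passed in any comparison. Its CPM ran from 272 to 367 in YND (median 301), 334 to 440 in YHFD (median 343), 250 to 364 in OND (median 331) and 232 to 411 in OHFD (median 301). The log2 fold change was 0.22 (95% interval -0.07 to 0.50) in YHFD against YND and 0.01 (-0.28 to 0.30) in OHFD against YND. Rxrg, the least abundant RXR gene, rose in OHFD against OND (0.71) and in OHFD against YND (0.53). Rxrb was not called in any comparison.

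Nr1h3, chr2:91184061-91202834 (minus strand), encodes LXR alpha, which responds to oxysterols and drives cholesterol export and fat synthesis. It had the smallest SE of the 10 in each comparison, with 86.0 to 98.7 CPM in YND (median 94.4), 79.8 to 94.6 in YHFD (median 89.3), 71.3 to 91.7 in OND (median 84.4) and 73.0 to 103.8 in OHFD (median 91.2). Its 95% intervals were -0.27 to 0.10 in YHFD against YND and -0.24 to 0.13 in OHFD against YND. Of 16 tested LXR targets, 4 were higher and 4 lower in OHFD against YND, beside 17.3% and 12.9% of all genes. With so few genes, nothing is read from these counts about the list. In YHFD against YND 1 was higher (Mylip), and in OHFD against OND 1 was lower (Acaca), beside 1.91% and 1.64% of all genes. The lower ones in OHFD against YND were the fat synthesis genes Scd1 (-1.26), Fasn (-1.25) and Acaca (-0.83) and the cholesterol exporter Abca1 (-0.51). Abcg1 (2.15), Mylip (2.21) and Arl4c (2.90) were higher, as was Smpdl3a (0.47). The first 3 were also higher in OND against YND, beside the Kupffer marker sums given above.

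Esrra, chr19:6910977-6921813 (minus strand), encodes ERR alpha, which drives mitochondrial genes. Its CPM ran from 19.4 to 21.8 in YND (median 21.1), 15.6 to 31.1 in YHFD (median 16.5), 16.1 to 21.6 in OND (median 17.4) and 9.83 to 20.7 in OHFD (median 13.3). In OHFD against YND the log2 fold change was -0.47 (SE 0.17, adjusted p = 0.0463 in edgeR's quasi-likelihood test). This call was close to the threshold and stood in 7 of 24 fits with a mouse left out, those without YHFD replicate 2, 3 or 4, OND replicate 5 or 6, or OHFD replicate 1 or 6. In the others the change was -0.37 to -0.49, with adjusted p of 0.0509 to 0.112, and DESeq2 with batch gave -0.42 (adjusted p = 0.0584). Neither batch alone passed (-0.56 and -0.40, with edgeR adjusted p of 0.252 and 0.183). Of 20 tested ERR alpha targets, Pdk4 (-1.29), a brake on glucose oxidation, and Cs (-0.34), citrate synthase, were lower in OHFD against YND, and this count was below the 12.9% of all genes. No target was called in the other 4 comparisons, although all 20 log2 fold changes were negative in OND against YND, from -0.54 to -0.17.

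**Figure D4:**
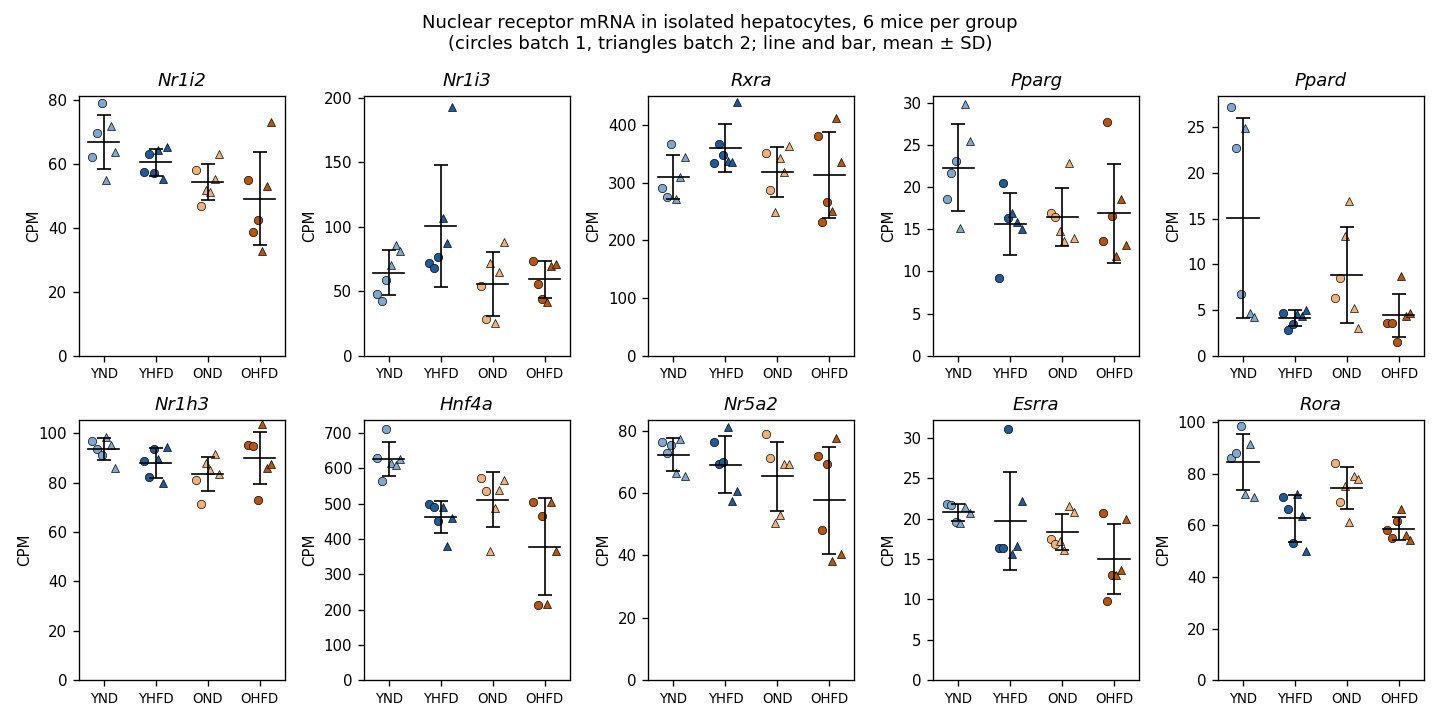
CPM (vertical axis, from 0) of each receptor in each of 24 mice by group, with circles for batch 1, triangles for batch 2 and the mean ± SD of 6 mice as a line and bar. All YHFD and OHFD points of Hnf4a lie below those of YND, and Ppard in YND splits into 3 mice above 22 CPM and 3 below 7.

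The effect of HFD did not pass a test of difference between old and young mice for any of the 10 receptors (0% of all genes were called higher and 0% lower, and 1247 of 13583 had an unadjusted p under 0.05 in edgeR, while DESeq2 with batch called 4 genes, none of them among the 10). The largest differences, old minus young, were 0.93 (95% interval -0.42 to 2.28) for Ppard, 0.53 (-0.07 to 1.14) for Pparg and -0.40 (-1.12 to 0.32) for Nr1i3. For Hnf4a it was -0.01 (-0.54 to 0.51). These intervals leave room for differences of either direction.

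**Figure D5:**
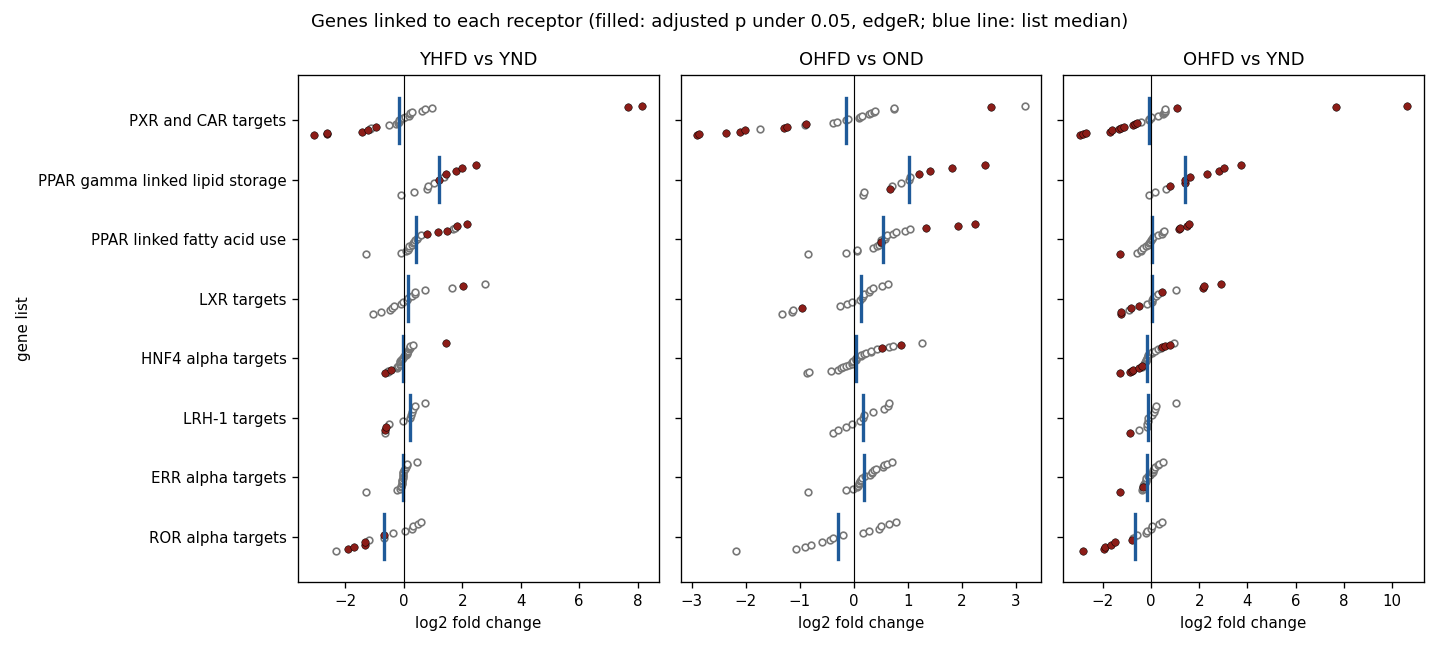
Log2 fold change (horizontal axis, its range set for each comparison) of the tested genes of 8 lists linked to the receptors (vertical axis) in 3 comparisons; filled points have an adjusted p under 0.05 and the blue line is the list median. Lipid storage genes have medians of 1.20, 1.02 and 1.42, with 1 of 11 just below 0 in YHFD against YND and in OHFD against YND, and the called genes linked to ROR alpha lie to the left.

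Of 29 other receptors tested, none was called in YHFD against YND, and 4 were higher and 5 lower in OHFD against YND. This was near the share of all genes called there (17.3% higher and 12.9% lower), so nothing is read from it about the receptors. The lower ones included the thyroid hormone receptor Thrb (-0.63), Nr2c2 (-0.95), Nr2f6 (-0.54) and Nr6a1 (-0.92), and the higher ones included Nr2f2 (0.47). Nr1h4, the bile acid receptor, and Nr0b2, the small repressor partner of LRH-1 and HNF4 alpha, were not called in any comparison. Of 21 coregulators, 6 were lower and 3 higher in OHFD against YND, where 12.9% and 17.3% of all genes were, so the higher ones were below the share of all genes. Among the lower ones were the coactivators Ncoa1 (-0.37), Ncoa2 (-0.47) and Ncoa6 (-0.47). Ppargc1b (1.29), Crebbp (0.65) and Trim24 (1.13) were higher.

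The genes whose pattern over the 24 mice was most like each receptor were found by Pearson correlation of log2 CPM with batch means removed, among 7753 expressed genes. Hnf4a was most like Mtus1 (r 0.95) and Prpf8 (0.95), Nr5a2 most like Tarsl2 (0.94) and Aldh8a1 (0.90), and Nr1i2 most like Lrrc47 (0.88) and Snx27 (0.86). Nr1i3 was most like Bdh1 (0.87), Rora was closely matched by Dapk1 (0.84), and Rxra most like Lims2 (0.84) and Angptl4 (0.82). Nr1h3 had the lowest best match, Plekhj1 (0.78).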

How the data were processed

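PolyA RNA of hepatocytes from 24 mice was sequenced, and per the labels the reads were processed with FastQC 0.11.8, STAR 2.7.3a and HTSeq 0.11.2 on mm10. The authors deposited raw counts per gene, and FPKM adjusted by them for batch. CPM/FPKM matched the whole gene span (median ratio 0.954) rather than summed exons (5.02), so levels between genes were set on CPM per exonic kilobase (GENCODE M21, GRCm38), not on FPKM as planned. FPKM served as an alternative.

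Counts were tested with edgeR 4.0.16 (R 4.3.3, filterByExpr, TMM, group and batch, quasi-likelihood, all 24 mice, Benjamini-Hochberg over 13583 genes). All 10 receptors were named in every comparison, and from the lists genes called in any comparison. Alternatives used DESeq2 1.42.0, limma 3.58.1, other filters, scaling and samples. Scripts were tested on simulated data. Receptors and lists were chosen with earlier results of these data known. Mice are separate animals, and libraries of a group differed by at least 14.5 chi-square per degree of freedom. The study's text and the labels differ in ages and ND product, and the labels were followed. Nnt had under 2.65 CPM in every mouse, so the substrain was not checked. Some genes of the lists are not reported here.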

Additional observations from a re-analysis of the deposited data

Results flagged for a closer look

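In 3 of 40 receptor and group combinations the highest mouse stood apart from the other 5 by more than 0.625 of the range of the group, the 95% critical value of Dixon's test for 6 samples, which chance exceeds in about 1 in 20 groups. Nr1i3 had 193.1 CPM in YHFD replicate 6, where the next mouse had 106.9. Rxra had 440.3 CPM in the same mouse, where the next had 366.1. Pparg had 22.9 CPM in OND replicate 5, where the next had 16.9. None of these 3 receptors was called in the main test of any comparison.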

How the results depend on the processing

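Receptors called were 2 in YHFD against YND and 5 in OHFD against YND. In the former they became 4 with only the groups compared (Ppard, Rora and Hnf4a lower, Nr1i3 higher), 1 in edgeR without batch or in batch 1 alone, and 0 in batch 2 alone, in limma on log2(FPKM + 1) with or without the filter, on log2(FPKM + 0.1), with the replicate block, and without the 4 mice highest in Kupffer markers (an alternative chosen after seeing the data). Without the count filter they stayed 2, but Rora was lost (adjusted p = 0.0951 in edgeR) and Nr1i3 gained as higher (0.00206). In the latter they became 3 with only the groups compared, in limma without filter and in batch 1, 0 in batch 2, and 4, without Esrra, in limma on log2(FPKM + 1), under RLE scaling, in edgeR without batch and in both DESeq2 fits. OHFD against OND gave 1 in DESeq2 with and without batch (Rora) and 1 without the count filter (Ppard), which also gave 1 in OND against YND (Ppard) and 1 in OHFD against YHFD (Nr1i3). Leaving out each mouse gave 0 to 2, and 3 to 5 in OHFD against YND (3 without YND replicate 3 or OHFD replicate 4). The cause was not tested. Replicate numbers belong to different animals: same-numbered mice had a mean r of 0.18 (from -0.32 to 0.55), and of -0.002 with batch means also removed, and with the replicate block Ppard and Rora in YHFD against YND had edgeR adjusted p of 0.0540 and 0.0516. The 5 calls of OHFD against YND stood with the block and without the 4 mice.

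Of 60 fold changes of receptors, 0 of the 29 of at least 0.25 in size and 15 of the 31 smaller ones changed sign in any of 37 fits. Over all genes, the alternatives other than leaving out a mouse gave 9 (batch 2) to 2302 calls (only the groups compared) beside 475 in YHFD against YND, 15 (only the groups compared) to 1137 (DESeq2 with batch) beside 409 in OHFD against OND, 2 (batch 2) to 2053 (no filter) beside 1155 in OND against YND, 0 (batch 2) to 1235 (no filter) beside 304 in OHFD against YHFD, 617 (batch 2) to 4675 (DESeq2 with batch) beside 4100 in OHFD against YND, and up to 587 (no filter) beside 0 for the difference between the HFD effects. OHFD libraries were the shallowest, and Ppard, with 19 to 575 counts, was the least precise receptor.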
